A study of Mus musculus with 6 samples.

Results

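The collagen chain genes of the mouse were examined here in cardiomyocytes of the embryonic heart with and without the transcriptional coactivator Yap. Members were the genes whose symbol is Col, a number, the letter a and a number, read from probe sets annotated with a single gene. This gave 44 genes of 19938 on the array, from 46 probe sets. Col6a5 and Col6a6 had 2 probe sets each, and the brighter one on average stands for the gene. The genes fell into 11 fibrillar chains, 8 chains of basement membranes, 6 chains of type VI collagen and 19 others. The level of a gene is its probe set intensity on a linear scale, and genes whose mean lay below an intensity of 85.7, the 40th percentile over all probe sets, were not tested. This left 41 collagen genes among 13632 genes tested, and Col24a1 (mean 79.4 in Yap KO and 81.0 in Yap HET), Col4a3 (75.6 in Yap KO and 80.5 in Yap HET) and Col10a1 (77.1 in Yap KO and 75.7 in Yap HET) stayed below it.

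The 6 arrays came from hearts at E12.5, 3 from Yap KO and 3 from Yap HET embryos. All embryos came from crosses of TNTCre, Yap flox and R26 mTmG mice, so that Cre, driven by the cardiac troponin T promoter, deletes the floxed Yap gene and turns the membrane reporter from red to green in the same cells. The labels call the groups Yap KO and Yap HET. The Yap HET cells therefore also carried the Cre and the reporter and were heterozygous for the Yap deletion, and no array of cells with both Yap copies intact was analysed here. Individual hearts were digested and GFP-labelled cells were sorted. The number of hearts behind each array is not stated.

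Collagens are the main fibre-forming proteins of the extracellular matrix, built from chains wound around each other along stretches in which glycine recurs at regular intervals. Fibrillar collagens give tissues their tensile strength, type IV chains form the sheet of the basement membrane that surrounds each cardiomyocyte and lines vessels, and type VI collagen forms beaded filaments close to cells. In the heart the fibrillar chains are made mostly by fibroblasts, valve mesenchyme and epicardium-derived cells, and cardiomyocytes are known mainly for basement membrane components.

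Yap1, the gene of Yap, was 9.81-fold lower in Yap KO cells. Yap1 read 103, 84.7 and 86.6 on the Yap KO arrays and 886, 927 and 871 on the Yap HET arrays, a log2 difference of -3.29 ± 0.08 (SE; limma adjusted p = 2.70e-06). All log2 differences given here are Yap KO minus Yap HET, and each adjusted p is limma's after Benjamini-Hochberg correction for the 13632 genes. Array medians lay between 128 and 133 in Yap KO and between 132 and 140 in Yap HET. Replicate 1 was the highest array of each group in embryonic globin, and Yap KO replicate 1 was the highest of all. Hbb-y is a globin of primitive red cells. It read 1295, 450 and 86.3 on the Yap KO arrays and 232, 27.1 and 19.8 on the Yap HET arrays. Its log2 difference was 2.89 ± 1.14 (adjusted p = 0.145).

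Upstream sequences are shown for Col6a1 and Col8a1, the members that passed the test, and for Col6a2, whose product assembles with that of Col6a1. They are the 250 bases before the annotated start, 5′ to 3′ on the gene's own strand, from RefSeq on the build GRCm38.p6: chr10:76726045-76726294 for Col6a1, chr10:76623405-76623654 for Col6a2, and chr16:57754738-57754987 for Col8a1, all on the minus strand. Capitals mark CATTCC or its reverse complement GGAATG, the core of the site bound by TEAD factors, the DNA-binding partners of Yap.
Col6a1: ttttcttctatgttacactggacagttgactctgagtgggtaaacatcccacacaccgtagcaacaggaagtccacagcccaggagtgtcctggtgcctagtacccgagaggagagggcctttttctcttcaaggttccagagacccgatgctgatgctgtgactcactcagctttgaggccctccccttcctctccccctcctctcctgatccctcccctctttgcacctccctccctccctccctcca
Col6a2: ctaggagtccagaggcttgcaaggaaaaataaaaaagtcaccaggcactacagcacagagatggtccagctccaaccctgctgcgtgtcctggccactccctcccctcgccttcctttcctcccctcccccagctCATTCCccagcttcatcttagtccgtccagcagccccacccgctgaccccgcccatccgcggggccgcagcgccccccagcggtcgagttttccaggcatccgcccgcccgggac
Col8a1: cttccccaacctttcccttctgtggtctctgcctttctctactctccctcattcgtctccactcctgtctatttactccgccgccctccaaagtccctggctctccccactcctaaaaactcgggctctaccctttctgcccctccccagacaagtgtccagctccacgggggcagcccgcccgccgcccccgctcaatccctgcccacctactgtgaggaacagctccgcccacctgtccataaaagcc

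The windows of Col6a1 and Col8a1 held no match. Col6a2 had 2 annotated starts, and of its windows the one with the most matches is shown. That window held 1, and the other, chr10:76623631-76623880, held 0. Of the 44 collagen genes, 35 had such a window, with 38 windows in all, and 4 of these windows (10.5%) held the motif on either strand. Of all 32851 windows of this length, 12.6% held it. The other genes with a match were Col3a1, Col18a1 and Col20a1. These windows cover only the bases next to an annotated start, and distant sites were not searched.

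Across the 41 tested collagen genes, Col6a1 rose and Col8a1 fell in Yap KO cells, and the other 39 did not pass the threshold of 0.05. Col8a1 entered the test through its level in Yap HET, since its Yap KO mean of 81.7 lay below the filter level. Of all genes tested, 9.93% passed, 704 of them higher (5.16%) and 649 lower (4.76%). With median centring of the arrays these became 1055 higher and 339 lower. Before adjustment, p was under 0.05 for 10 collagen genes with positive and 3 with negative differences, and for 28.2% of all genes tested. The groups did not overlap for 8 collagen genes, compared with 33.9% of all genes tested. Yap KO was above Yap HET in 6 of them (16.7% of all genes) and below it in 2 (17.2% of all genes). The median log2 difference was -0.01 for the collagen genes and -0.02 for all genes tested, and that of the collagen genes turned positive, 0.03 to 0.05, with quantile normalization, cyclic loess or median centring. Under the same settings the median of all genes lay between 2.0e-04 and 0.044. The collagen median was also positive, at most 0.025, with Yap KO replicate 1 or 2 or Yap HET replicate 1 or 3 left out. Leaving out Yap KO replicate 1 gave 5 collagen genes higher, and leaving out Yap HET replicate 2 gave 2 higher and 2 lower. Leaving out Yap KO replicate 3 gave 2 lower, and leaving out Yap KO replicate 2 gave 0 lower.

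**Figure D1:**
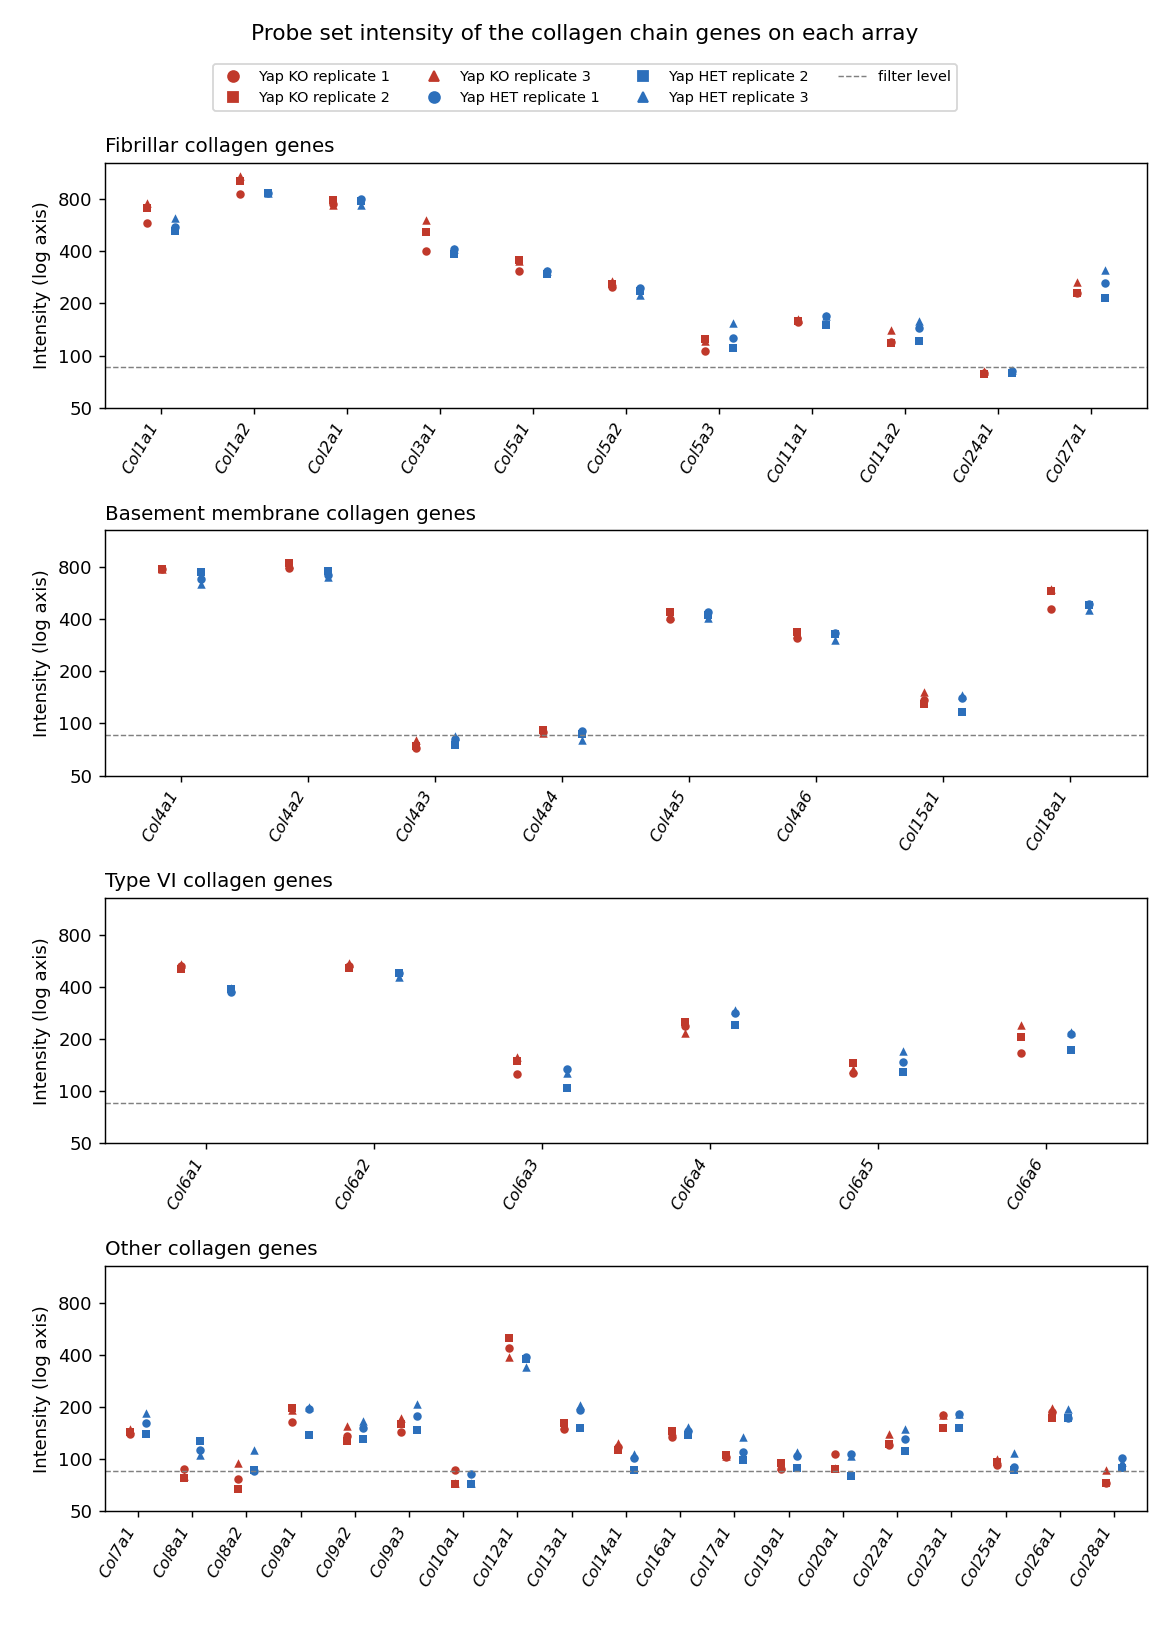
Intensity of each of the 44 collagen chain genes on a log axis, by class. Points are single arrays, red for Yap KO at the left and blue for Yap HET at the right of each gene, and the dashed line is the filter level of 85.7. The groups stand clearly apart for Col6a1, whereas most other genes overlap and many of the other class lie close to the line.

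**Figure D2:**
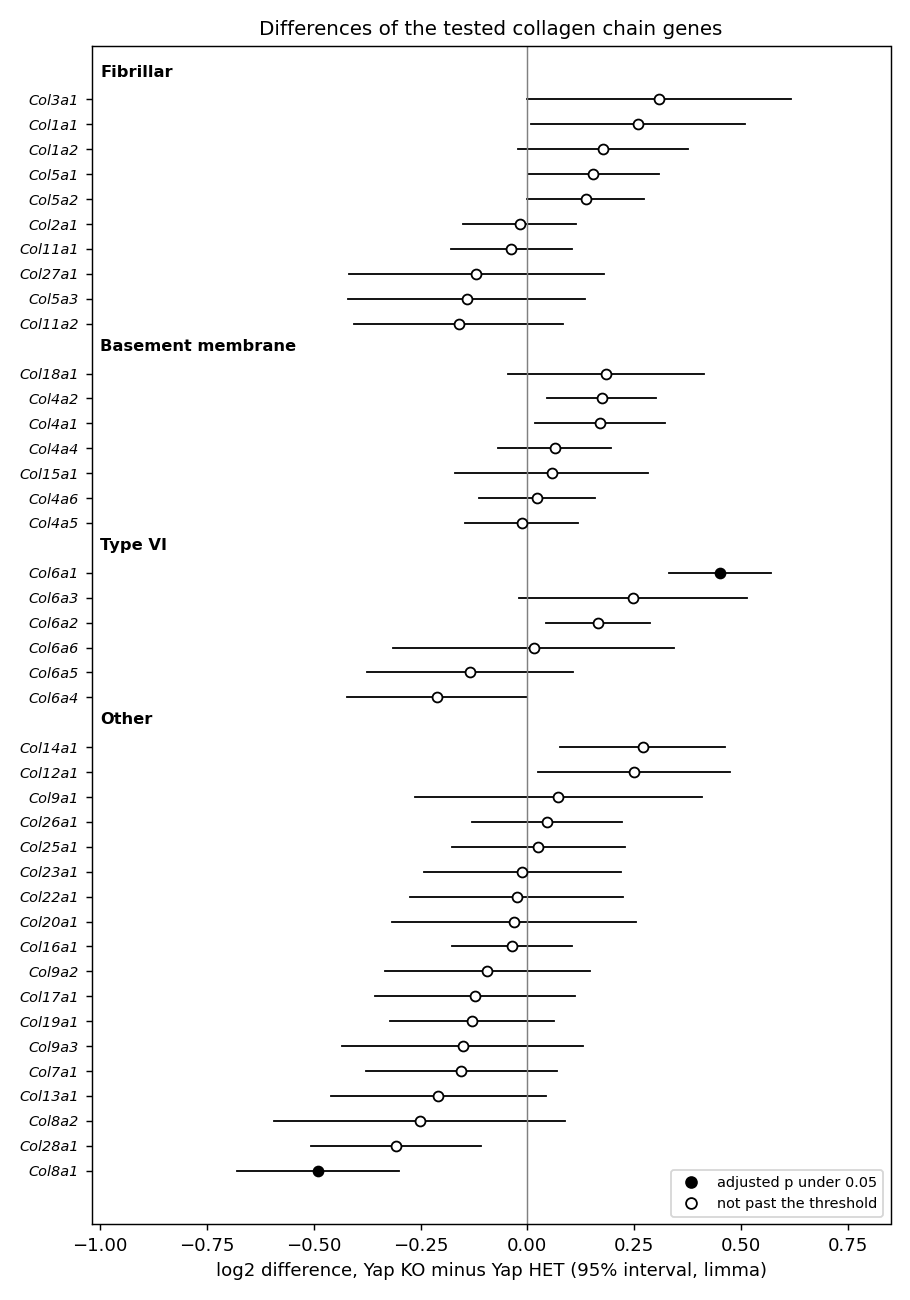
Log2 difference, Yap KO minus Yap HET, of the 41 tested collagen genes with 95% intervals from limma, ordered within class. Filled points passed the adjusted threshold: Col6a1 at 0.45 and Col8a1 at -0.49.

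Type VI collagen was the class with a gene that rose. Col6a1 encodes a chain that every type VI molecule contains. It read 531, 507 and 544 on the Yap KO arrays and 374, 387 and 395 on the Yap HET arrays. All Yap KO values lay above all Yap HET values, and the spread within each group was small. The means were 527 ± 18.6 in Yap KO and 385 ± 10.4 in Yap HET (SD, 3 arrays each), a 1.37-fold higher level (log2 difference 0.45 ± 0.05, adjusted p = 0.00349). Over the 15 alternative analyses the difference stayed between 0.43 and 0.51 and the adjusted p between 1.83e-04 and 0.0232.

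The partner chains of type VI collagen had smaller differences that did not pass. Col6a2, whose chain joins that of Col6a1 and which lies next to it in the annotation, read 527, 517 and 549 in Yap KO and 483, 483 and 455 in Yap HET. These values did not overlap, and the log2 difference was 0.17 ± 0.05 (adjusted p = 0.0882). Col6a3, whose long chain completes the classical molecule, read 127, 149 and 158 in Yap KO and 134, 104 and 128 in Yap HET, with overlap (0.25 ± 0.12, adjusted p = 0.204). The log2 ratio of Col6a1 to Col6a2 within an array was 0.01, -0.03 and -0.01 in Yap KO and -0.37, -0.32 and -0.20 in Yap HET. This ratio compares a pair of probe sets only for its change between groups, and it was higher by 0.29 in Yap KO, with p = 0.1 in a two-sided exact permutation test, the smallest that 3 arrays against 3 allow. For Col6a1 over Col6a3 the change in the ratio was 0.20, with p = 0.3 in the same exact test. Over the 5 ratios of chain pairs that were computed, none could reach 0.05 by this test, and the adjusted p was 0.5 for both of these.

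The 3 remaining type VI genes encode chains that can take the place of the Col6a3 product, and none passed the test. Col6a4 read 239, 252 and 216 in Yap KO and 282, 241 and 296 in Yap HET (-0.21 ± 0.09, adjusted p = 0.176). Col6a5 (-0.13 ± 0.10) and Col6a6 (0.01 ± 0.14) overlapped between groups. Each of these last 2 had a second probe set, with log2 differences of 0.06 for Col6a5 and 0.13 for Col6a6, so the probe sets of Col6a5 differed in sign. Over the 6 type VI genes, 1 rose, 0 fell and the median was 0.09. That median was 0.015 with Yap KO replicate 3 left out, 0.020 with Yap HET replicate 2 left out, and 0.16 with Yap KO replicate 1 left out.

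Fibrillar chains did not pass the test in Yap KO cells, although the chains of types I and III were above all Yap HET arrays on Yap KO replicates 2 and 3. Of the 10 tested, 0 rose and 0 fell with limma, while the unadjusted p was under 0.05 for 4 positive and 0 negative differences. Over all 13632 genes tested it was under 0.05 for 1889 positive and 1962 negative differences. The main chains of fibres in most tissues, Col1a1 and Col1a2, form type I collagen together. Col1a1 read 579, 706 and 760 in Yap KO and 552, 526 and 624 in Yap HET. Yap KO replicates 2 and 3 were above every Yap HET array and Yap KO replicate 1 lay among them. The log2 difference was 0.26 ± 0.11 with a 95% interval of 0.01 to 0.51 (adjusted p = 0.167).

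Col1a2 read 852, 1012 and 1081 in Yap KO and 868, 864 and 861 in Yap HET, where the 3 arrays were nearly equal (log2 difference 0.18 ± 0.09, adjusted p = 0.221). Col3a1, the type III chain of extensible tissues and developing valves, read 400, 517 and 605 in Yap KO and 414, 388 and 411 in Yap HET. Its SD was 103 in Yap KO and 14.4 in Yap HET, and its difference of 0.31 ± 0.13 was the largest of the class (adjusted p = 0.177). In all 3 genes Yap KO replicate 1, the array with the highest Hbb-y, was the lowest Yap KO array. Without it, Col1a1 (0.37, adjusted p = 0.0498), Col1a2 (0.28, adjusted p = 0.0388) and Col3a1 (0.47, adjusted p = 0.0235) passed the limma test, and the count of fibrillar genes higher was 3. Yap KO replicate 2, whose Hbb-y of 450 was also above every Yap HET array, was above those arrays in all 3 genes. The part of blood content in these values was not tested.

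**Figure D3:**
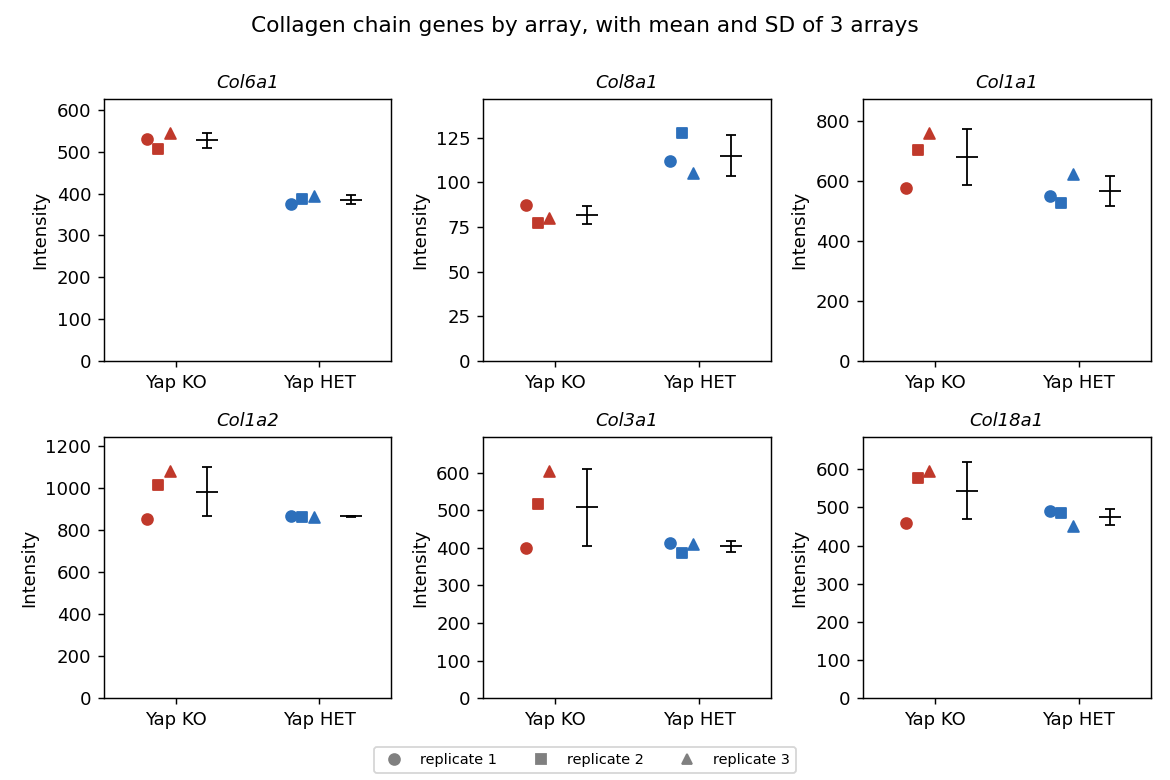
Intensity of 6 collagen genes on each array, with the mean and SD of 3 arrays per group beside the points. Col6a1 and Col8a1 separate the groups, and in Col1a1, Col1a2, Col3a1 and Col18a1 Yap KO replicate 1 lies at the level of the Yap HET arrays.

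Type V chains, which set the diameter of type I fibrils, differed by less. Col5a1 read 307, 354 and 350 in Yap KO and 306, 294 and 308 in Yap HET (0.15 ± 0.07, adjusted p = 0.176). Col5a2, the neighbour of Col3a1 in the annotation, read 247, 259 and 270 in Yap KO and 246, 236 and 224 in Yap HET, without overlap but by a narrow margin (0.14 ± 0.06, adjusted p = 0.177). Col5a3 had a difference of -0.14 ± 0.12. The cartilage chains were also measured: Col2a1, the main chain of cartilage and also found in embryonic valves, read 751, 795 and 737 in Yap KO and 801, 776 and 735 in Yap HET. Its difference of -0.02 ± 0.06 had an interval of -0.15 to 0.11, so a change of the size seen in Col6a1 lay outside it. Col11a1 (-0.04 ± 0.06), Col11a2 (-0.16 ± 0.11) and Col27a1 (-0.12 ± 0.13) overlapped between groups. Over the class, 5 differences were positive and 5 negative, with a median of 0.06.

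No basement membrane chain passed the test. Of the 7 tested, 0 rose and 0 fell with limma, the unadjusted p was under 0.05 for 2 positive and 0 negative differences, and 6 of 7 differences were positive with a median of 0.06. Positive differences made up 6137 of 13632 over all genes tested. Over the same genes, the unadjusted p was under 0.05 for 1889 positive and 1962 negative differences. Col4a1 and Col4a2 encode the chains of the type IV network found in almost all basement membranes, and are transcribed head to head from starts that RefSeq places 21 bases apart. Col4a1 read 775, 777 and 783 in Yap KO and 686, 752 and 641 in Yap HET. Col4a2 read 785, 839 and 834 in Yap KO and 723, 758 and 698 in Yap HET. In both genes every Yap KO array was above every Yap HET array, and the differences were 0.17 ± 0.07 (adjusted p = 0.137) and 0.17 ± 0.06 (adjusted p = 0.0888). The log2 ratio of Col4a1 to Col4a2 differed by -0.004 between groups (two-sided exact permutation p = 0.9). Col4a1 passed without Yap HET replicate 2 (0.23, adjusted p = 0.0478).

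The other basement membrane genes overlapped between groups. Col4a5 and Col4a6, X-linked neighbours whose starts are 1343 bases apart, had differences of -0.01 ± 0.06 and 0.02 ± 0.06. Col4a4, a chain of the kidney filter, read between 80.3 and 91.1 on all arrays, at the filter level, and its neighbour Col4a3 read between 71.9 and 84.7. Col15a1 (0.06 ± 0.10) and Col18a1 belong to the multiplexins, collagens at the edge of basement membranes, and Col18a1 is the source of the fragment endostatin. Col18a1 read 458, 577 and 596 in Yap KO and 491, 485 and 452 in Yap HET (0.18 ± 0.10, adjusted p = 0.267). As in types I and III, Yap KO replicate 1 lay among or just below the Yap HET arrays and the other Yap KO arrays above them, and without it Col18a1 passed (0.30, adjusted p = 0.0377).

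Among the other collagens, Col8a1 fell. It encodes a chain of type VIII, a short network-forming collagen of vessel walls and heart valves. It read 87.4, 77.5 and 80.2 in Yap KO and 112, 127 and 105 in Yap HET, without overlap. The means were 81.7 ± 5.08 in Yap KO and 115 ± 11.4 in Yap HET (SD, 3 arrays each), a 1.40-fold lower level in Yap KO (log2 difference -0.49 ± 0.08, adjusted p = 0.0123). Yap KO replicates 2 and 3 and the Yap KO mean were below the filter level of 85.7, and whether such intensities exceed background was not tested. With no filter the adjusted p was 0.0426, and without Yap KO replicate 2 it was 0.058. Its partner chain Col8a2 read 77.2, 66.9 and 94.8 in Yap KO and 84.8, 86.5 and 113 in Yap HET. These values overlapped (-0.25 ± 0.15, adjusted p = 0.302). Col8a2 also entered the test through its level in Yap HET (mean 94.7), since its Yap KO mean of 79.6 lay below the filter level.

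Col14a1 and Col12a1, whose products sit on the surface of collagen fibrils, had positive differences that did not pass. Col14a1 read 118, 112 and 123 in Yap KO and 101, 86.4 and 106 in Yap HET, without overlap (0.27 ± 0.08, adjusted p = 0.0815). It passed with each of 3 other normalizations, with adjusted p between 0.0217 and 0.0243. Col12a1 read 435, 497 and 386 in Yap KO and 390, 377 and 339 in Yap HET (0.25 ± 0.10, adjusted p = 0.143). Col28a1, a collagen with von Willebrand factor domains, read 72.7, 72.5 and 86.9 in Yap KO and 101, 88.9 and 96.1 in Yap HET. These values did not overlap (-0.31 ± 0.09, adjusted p = 0.0626). Col28a1 entered the test through its level in Yap HET (mean 95.5), since its Yap KO mean of 77.3 lay below the filter level. It passed without Yap KO replicate 3, the only Yap KO array above that level, with adjusted p = 0.0330. Whether the Yap KO intensities of Col28a1 exceed background was not tested.

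The remaining tested genes of this class overlapped between groups, and all their intervals included 0. They were the cartilage surface chains Col9a1, Col9a2 and Col9a3, the related Col16a1, Col19a1, Col20a1 and Col22a1, the membrane-spanning Col13a1, Col17a1, Col23a1 and Col25a1, the anchoring fibril gene Col7a1, and Col26a1. Their differences lay between -0.21 ± 0.11 in Col13a1 and 0.07 ± 0.15 in Col9a1. Col13a1 passed once Yap HET replicate 2 was left out (-0.34, adjusted p = 0.0224). Their intensities lay between 80.0 and 207 on all arrays. Of the 18 tested genes of the class, 0 rose, 1 fell and 13 of 18 differences were negative, with a median of -0.07. Negative differences made up 7495 of 13632 over all genes tested, and 4167 of the 6816 genes below an intensity of 437, the median level. The median difference of the class moved to between -0.01 and -0.004 with quantile normalization, cyclic loess or median centring. It was -0.17 with Yap HET replicate 2 left out and -9.0e-04 with Yap HET replicate 3 left out.

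Among genes whose products modify and fold collagen chains in the endoplasmic reticulum, most calls were rises. Of 18 such genes tested, 5 rose and 1 fell (33.3%, against 9.93% of all genes tested), with a median of 0.15. Prolyl hydroxylation stabilises the collagen helix, and the genes of its enzyme moved in both directions. P4ha1, the main catalytic subunit, read 1490, 1595 and 1401 in Yap KO and 1093, 1243 and 1035 in Yap HET (0.41 ± 0.08, adjusted p = 0.0211). P4ha3, a minor catalytic subunit, read 333, 343 and 352 in Yap KO and 523, 540 and 442 in Yap HET (-0.54 ± 0.08, adjusted p = 0.00767). P4hb, the shared subunit protein disulfide isomerase, rose by 0.27 ± 0.06 (adjusted p = 0.0274).

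The lysyl hydroxylase genes Plod1 (0.31 ± 0.07, adjusted p = 0.0347) and Plod2 (0.25 ± 0.05, adjusted p = 0.0295) and the prolyl isomerase gene Fkbp14 (0.32 ± 0.08, adjusted p = 0.0436) also rose. In each of these genes every Yap KO array was above every Yap HET array. The collagen chaperone gene Serpinh1 read 1968, 2064 and 2002 in Yap KO and 2078, 2253 and 2002 in Yap HET (-0.07 ± 0.06, adjusted p = 0.49) and was chosen after its values were seen. Of the 5 rises, 0 passed without Yap KO replicate 2, Yap HET replicate 1 or Yap HET replicate 3. Leaving out Yap KO replicate 1 gave 1 rise. P4ha3 kept its call with every array left out.

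Among genes that trim and crosslink collagen outside the cell, Pcolce and Loxl1 fell. Pcolce, an enhancer of the protease that trims procollagen, read 1217, 1316 and 1222 in Yap KO and 2047, 2065 and 2095 in Yap HET. The gap was far wider than the spread within either group, and the level was 1.65-fold lower in Yap KO (-0.73 ± 0.05, adjusted p = 5.91e-04). The crosslinking enzyme gene Loxl1 read 749, 695 and 885 in Yap KO and 1003, 1051 and 990 in Yap HET (-0.39 ± 0.09, adjusted p = 0.0328). These were the 2 that fell of 10 genes of procollagen cleavage and crosslinking tested (20% called, against 9.93% of all genes tested). With limma 0 rose, while 1 positive difference had an unadjusted p under 0.05. Loxl3 (-0.40 ± 0.11, adjusted p = 0.0587) and the protease gene Bmp1 itself (0.13 ± 0.05, adjusted p = 0.147) did not pass. Pcolce kept its call with any array left out, and Loxl1 kept it only without Yap KO replicate 3. The number of genes lower was 3 without that array, 2 without Yap HET replicate 3 and 1 with any of the others left out.

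Of 8 genes of collagen breakdown and its inhibitors tested, 2 rose and 0 fell with limma (25%, against 9.93% of all genes tested). Among negative differences 1 had an unadjusted p under 0.05. Mmp2, a gelatinase that degrades denatured and type IV collagen, read 989, 1019 and 1160 in Yap KO and 663, 627 and 557 in Yap HET (0.78 ± 0.09, adjusted p = 0.00314). Mmp14, the membrane protease that activates it, read 867, 879 and 954 in Yap KO and 779, 707 and 735 in Yap HET (0.28 ± 0.06, adjusted p = 0.0300). The inhibitor genes Timp1 (0.12 ± 0.06, adjusted p = 0.264) and Reck (-0.14 ± 0.05, adjusted p = 0.114) did not pass. Mmp2 kept its call with any array left out, and Mmp14 kept it only without Yap KO replicate 1.

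**Figure D4:**
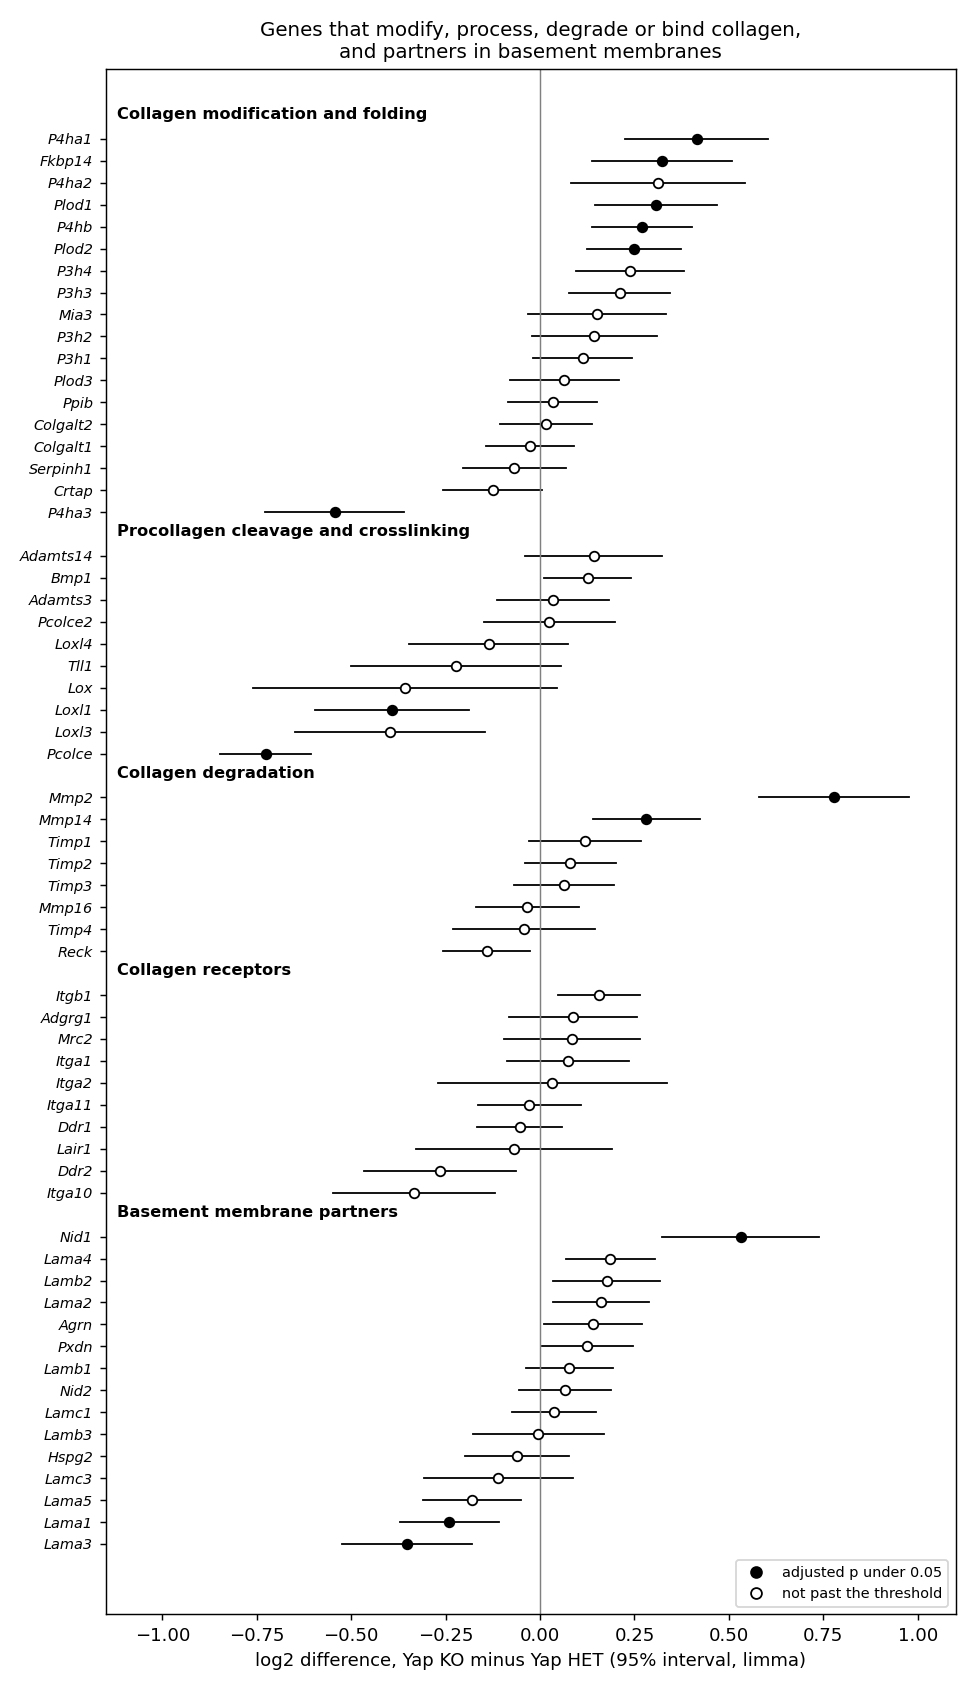
Log2 difference, Yap KO minus Yap HET, with 95% intervals from limma, for tested genes that modify, process, degrade or bind collagen or lie beside it in basement membranes. Filled points passed the adjusted threshold. Mmp2 at 0.78 and Pcolce at -0.73 lie farthest from 0.

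Receptors of collagen gave no call: of 10 tested, 0 rose and 0 fell with limma. The unadjusted p was under 0.05 for 1 positive and 2 negative differences, and for 28.2% of all genes tested. Itgb1, the beta subunit of the collagen-binding integrins, read 3831, 3927 and 3899 in Yap KO and 3539, 3422 and 3503 in Yap HET (0.16 ± 0.05, adjusted p = 0.0755). The alpha subunit gene Itga10 (-0.33 ± 0.09, adjusted p = 0.0621) and the kinase gene Ddr2 (-0.26 ± 0.09, adjusted p = 0.0964) read close to the filter level. Both entered the test through Yap HET, since their Yap KO means of 84.2 and 85.1 lay below that level. The adhesion receptor gene Adgrg1 had a difference of 0.09 ± 0.07 (adjusted p = 0.469). With Yap HET replicate 2 left out, 1 receptor gene was lower.

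Among 15 laminins, nidogens and other partners of type IV collagen, 1 rose and 2 fell (20%, against 9.93% of all genes tested). Nid1, which links laminin to type IV collagen, read 767, 796 and 893 in Yap KO and 573, 623 and 506 in Yap HET (0.53 ± 0.09, adjusted p = 0.0125). The laminin chain genes Lama1 (-0.24 ± 0.06, adjusted p = 0.0393) and Lama3 (-0.35 ± 0.07, adjusted p = 0.0270) fell, at means of 119 and 105 in Yap KO and 141 and 134 in Yap HET. Lama4, a laminin chain of muscle and vessels, had a difference of 0.19 ± 0.05 (adjusted p = 0.0597). Nid1 lost its call without Yap HET replicate 1 (adjusted p = 0.0512). Of the partners, 1 fell when Yap HET replicate 2 or 3 was left out, and 0 with any other array left out. Lama1 also lost its call with each of the 3 other normalizations, with adjusted p between 0.105 and 0.157.

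Markers of other cells moved with the same comparison. In sorted bulk RNA, more cells of a type and more RNA per cell cannot be told apart. Of 12 mesenchymal and fibroblast markers, 4 rose and 0 fell with limma (33.3%, against 9.93% of all genes tested). Unadjusted p was under 0.05 for 0 negative differences. The 4 that rose were the growth factor receptor gene Pdgfra (0.98 ± 0.10), the transcription factor genes Tcf21 (0.93 ± 0.17) and Sox9 (0.39 ± 0.07) and the matrix gene Postn (0.72 ± 0.13), with adjusted p at most 0.0154. Of the 12 differences, 10 were positive and 2 negative, those of Dcn (-0.004 ± 0.20) and Vim (-0.04 ± 0.05). The summed intensity of the list lay between 15523 and 17512 in Yap KO and between 13925 and 14575 in Yap HET, and 0 members were at 0. Vim was the largest part of this sum, at means of 6060 in Yap KO and 6230 in Yap HET. The 4 rises became 2 without Yap KO replicate 2. The part of such cells in the values of Col6a1, Mmp2 and the fibrillar chains was not tested.

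Of 11 tested endothelial and endocardial markers, 3 rose and 1 fell with limma (36.4%, against 9.93% of all genes tested). The receptor genes Kdr (0.76 ± 0.05) and Eng (0.52 ± 0.08) and the valve factor gene Nfatc1 (0.31 ± 0.08) rose. The natriuretic receptor gene Npr3 fell (-0.34 ± 0.06), and adjusted p was at most 0.0445 in all of these. Of the 11 differences, 8 were positive and 3 negative, the negative ones including Flt1 (-0.05 ± 0.11) and Cldn5 (-0.05 ± 0.11). The list summed to between 2197 and 2421 in Yap KO and between 1912 and 2015 in Yap HET, and 0 members were at 0. Of 10 smooth muscle and pericyte markers, Pdgfrb (0.73 ± 0.08) and Cspg4 (0.34 ± 0.07) rose and 0 fell with limma. This was 20% called, against 9.93% of all genes tested. In this list 5 differences were positive and 5 negative, with a median of 0.04. Among negative differences 2 had an unadjusted p under 0.05. Kcnj8, a potassium channel gene of pericytes, differed by -0.37 ± 0.11 (adjusted p = 0.0759) and the contractile gene Cnn1 by 0.16 ± 0.05 (adjusted p = 0.0848). The markers summed to between 16506 and 18029 in Yap KO and between 17364 and 17961 in Yap HET. With Yap KO replicate 2, Yap HET replicate 1 or Yap HET replicate 3 left out, 1 of these genes rose, and Npr3 lost its call without Yap HET replicate 1 (adjusted p = 0.0562). Nfatc1 lost its call in 7 of the 15 alternatives, with adjusted p up to 0.135, and kept it with an array left out only where that was Yap KO replicate 1.

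Of 10 epicardial markers, 0 rose and 0 fell with limma, while the unadjusted p was under 0.05 for 0 positive and 5 negative differences. Such a p was found for 28.2% of all genes tested, with 1889 positive and 1962 negative differences. The surface genes Upk3b (-0.68 ± 0.19, adjusted p = 0.0606) and Msln (-0.30 ± 0.09, adjusted p = 0.0694), the keratin gene Krt19 (-0.23 ± 0.08, adjusted p = 0.121) and the transcription factor gene Tbx18 (-0.37 ± 0.14, adjusted p = 0.144) had the smallest p. The list summed to between 2913 and 4171 in Yap KO and between 4184 and 5036 in Yap HET, and 1 gene fell when Yap KO replicate 1 or 3 was left out. Of 6 tested blood markers 0 passed with limma, while the unadjusted p was under 0.05 for 1 positive difference, that of Hbb-y, and 3 negative ones, those of the macrophage genes Cd68 (-0.72 ± 0.20) and Csf1r (-0.21 ± 0.07) and the leukocyte gene Ptprc (-0.17 ± 0.05). With Yap KO replicate 1 or Yap HET replicate 2 left out, 1 blood marker fell, and the list of 8 summed to between 920 and 3084 in Yap KO and between 1147 and 1434 in Yap HET. Cardiomyocyte genes were bright on all arrays: Tnnt2, whose promoter drives the Cre, read 8441, 8733 and 8405 in Yap KO and 8605, 8745 and 8826 in Yap HET. Of 12 cardiomyocyte markers, 1 rose and 0 fell with limma (8.33%, against 9.93% of all genes tested). It was Nppa, the gene of atrial natriuretic peptide (0.19 ± 0.05, adjusted p = 0.0487). Nkx2-5, a cardiac transcription factor gene, had an unadjusted p under 0.05 (-0.18 ± 0.07, adjusted p = 0.123). Ryr2, the gene of the calcium release channel, differed by -0.09 ± 0.06 (adjusted p = 0.355). Nppa lost its call whichever array was left out. The cardiomyocyte list summed to between 81373 and 84068 in Yap KO and between 81769 and 82729 in Yap HET.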

How the data were processed

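RNA of sorted cells was measured on 6 Affymetrix mouse arrays, 1 per sample. The authors deposited a linear intensity for each probe set. The submitters' processing notes name RMA without a version. RMA usually returns log2 values, no source used here says how the linear values were made, and log2 was taken of the deposited intensity before testing. Of 35556 probe sets, 21789 had a single symbol in the platform annotation. Symbols were updated by Entrez ID through RefSeq GRCm38.p6, which matched 21698. The test was limma's (3.58.1, lmFit then eBayes, run in R 4.3.3) with group as the only term, and the prior had 3.87 degrees of freedom. No detection call was used.

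The members and gene lists were chosen with earlier results of these data known. Text names Yap1, all collagen genes and, per further list, genes past the threshold and the 4 with the smallest p. Serpinh1, Dcn, Vim, Flt1 and Cldn5 are named besides, after their values were seen. Some genes of the further lists were not analysed here. The replicates are described as biological, litters are not given, and the number of arrays limits precision. The test was checked on simulated data. The 15 alternatives change the filter (none, or the 60th percentile), average probe sets per gene, normalize again by quantiles, medians or cyclic loess, add 16 before log2, use a trended and robust prior or a replicate block, or leave out each array in turn.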

Additional observations from a re-analysis of the deposited data

How the results depend on the processing

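Col6a1 kept its rise in all 15 alternatives and Col8a1, whose Yap KO mean lay below the filter level, passed in 13 of the 14 that tested it. The alternatives reuse the same arrays and cannot show whether the Col8a1 intensities exceed background. Of 1285 recomputed gene values, 1111 kept direction and side of the threshold, 88 lost a call, 38 gained one and 48 changed sign.

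Over all genes, the numbers higher and lower were 271 and 237 with no filter, 1189 and 1057 with a trended and robust prior, and 214 to 783 and 206 to 597 with an array left out. Median centring gave 339 lower. Deviations from the group mean correlated at -0.08, -0.17 and 0.12 between the Yap KO and Yap HET arrays of replicates 1, 2 and 3. With 3 arrays per group, these values cannot settle whether the replicate numbers pair the arrays. With the replicate block 395 genes were higher and 303 lower, while Col6a1 and Col8a1 kept their calls. The block changed other counts to 3 modification rises, 1 crosslinking fall, 1 degradation rise, 0 basement membrane partner falls, 0 cardiomyocyte marker rises and 2 blood marker rises.

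Collagen genes higher numbered 2 with quantile normalization, median centring or cyclic loess (the added one, Col14a1, in the other class) or with the trended prior (Col4a2 added, 1 basement membrane gene), and 3 with the filter at the 60th percentile, where 16 were tested (Col6a1, Col6a2 and Col4a2, so 2 of type VI and 1 of basement membranes) and 0 fell. That filter moved the medians to 0.17 for all collagens, 0.15 for fibrillar, 0.17 for basement membrane and 0.17 for type VI collagens, since dim members left. Of the other collagens it kept 1, Col12a1, at 0.25. Without a filter the fibrillar median was -0.018. With an array left out, collagen genes higher ranged from 1 to 5 and lower from 0 to 2, fibrillar and basement membrane genes higher from 0 to 3 and from 0 to 1, and other collagens lower from 0 to 2.

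Modification genes higher numbered 8 with the stricter filter or median centring, 0 without a filter and 0 to 6 with an array left out. Crosslinking genes lower numbered 1 without a filter and 1 to 3 with an array left out, and degradation genes higher 1 and 1 to 2. Among receptors, 1 was higher with the stricter filter or trended prior and 1 lower with cyclic loess, and 0 to 1 lower with an array left out. Basement membrane partners higher numbered 2 with the stricter filter or each of the 3 normalizations, 5 with the trended prior and 0 to 1 with an array left out, and lower 1 with those filters and normalizations, 0 without a filter and 0 to 1 with an array left out.

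Cardiomyocyte markers higher were 0 without a filter or with an array left out, and 1 was lower with the trended prior. Endothelial markers higher were 5 with median centring or the trended prior, and 0 to 1 fell with an array left out. Mesenchymal markers higher were 2 to 5 with an array left out. Smooth muscle markers higher were 1 without a filter and 1 to 2 with an array left out, and 1 was lower with the trended prior. Epicardial markers lower were 1 with the stricter filter, median centring or the offset of 16, and blood markers lower 1 with the stricter filter or median centring, each 0 to 1 with an array left out.

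The sign changed in 15 genes, 14 of them collagens, and none passed the threshold on either side. All tested collagen genes were recomputed whatever their p, but from the further lists only genes past the threshold or with the smallest p. The share of collagens depends on this choice and cannot show whether they were less stable than other genes. With quantile normalization, median centring and cyclic loess the differences were 0.013, 0.024 and 0.011 for Col11a1, 0.026, 0.025 and 0.016 for Col16a1, 0.033, 0.030 and 0.022 for Col20a1, 0.032, 0.036 and 0.027 for Col22a1 and 0.032, 0.049 and 0.035 for Col23a1. Median centring also gave 0.043 for Col2a1, 0.048 for Col4a5 and 0.028 for Tnnt2, and cyclic loess 2.4e-04 for Col4a5. With an array left out the ranges were -0.041 to 0.12 for Col15a1, -0.076 to 0.0018 for Col16a1, -0.16 to 0.045 for Col20a1, -0.13 to 0.078 for Col22a1, -0.10 to 0.072 for Col23a1, -0.041 to 0.12 for Col25a1, -0.0013 to 0.11 for Col26a1, -0.26 to 0.012 for Col27a1, -0.052 to 0.010 for Col2a1, -0.047 to 0.016 for Col4a5, -0.020 to 0.053 for Col4a6, -0.11 to 0.15 for Col6a6 and -0.10 to 0.17 for Col9a1. The causes were not tested.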

Other observations

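The arrays that were lowest or highest within their group were counted over the collagen genes. Tested genes were split at an intensity of 437, the median level of all genes tested, a split chosen after the values were seen. Of the 9 collagen genes above it, 8 differences were positive, with a median of 0.18, against 0.003 for all genes above it. Of the 32 below it, 20 were negative, with a median of -0.03, against -0.04 for all genes below it. Yap KO replicate 1 was the lowest Yap KO array for 19 of the 32 dimmer collagen genes (59.4%), against 31.1% of all dimmer genes. Yap HET replicate 2 was the lowest Yap HET array for 24 of them (75.0%), against 37.7%. Among the 9 brighter collagen genes the lowest Yap HET array was replicate 2 in 2 (22.2%) and replicate 3 in 6 (66.7%), against 855 and 4325 of all 6816 brighter genes. Yap KO replicate 1 was the lowest Yap KO array for 6 of these 9 genes (66.7%), against 25.3% of all brighter genes. The highest Yap KO array was replicate 3 in 7 of the 9 (77.8%), against 26.1% of all brighter genes. Genes of 1 array are not independent, and no test was made.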
